A study of Homo sapiens and Mus musculus with 19 samples.

Results

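The genes examined here encode the machinery of N6-methyladenosine (m6A), a methyl mark on the adenosines of RNA, and their transcripts were followed in chromatin-associated RNA (caRNA), the RNA that stays with the chromatin pellet when cells are fractionated. The 10 members were taken by name from a list of writers, erasers and readers and not by their values, although earlier results of these data were known at the time. They are the writers METTL3, METTL14, WTAP, VIRMA, ZC3H13 and RBM15 (6 genes), the erasers FTO and ALKBH5 (2 genes) and the readers YTHDC1 and YTHDF2 (2 genes). All 10 were found among the 58721 human genes of the K562 tables, and all 10 mouse genes of the same symbols among the 54446 mouse genes of the mESC tables. All of them passed the filter on low counts in both species.

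In the m6A pathway, METTL3 is the catalytic subunit and METTL14 its partner that holds the RNA, and both form the core of the writer complex. WTAP, VIRMA, ZC3H13 and RBM15 are the adaptors that stabilise this core, place it in the nucleus and bring it to its target RNAs. FTO and ALKBH5 are dioxygenases that remove the methyl group, YTHDC1 is the nuclear reader, and YTHDF2 is a cytoplasmic reader that brings methylated RNA to decay. Methylation by this complex takes place largely on nascent RNA in the nucleus, and on caRNA the mark is known to affect transcript stability and chromatin state.

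The study asked how TET2, a dioxygenase that oxidises 5-methylcytosine, and the binding and writing of 5-methylcytosine on caRNA bear on chromatin. K562, a human leukaemia cell line of erythroid character, was TET2 WT or TET2 KO, and cells of either genotype stably carried a lentiviral shRNA, the control shControl or shMBD6 against MBD6, a protein of the methyl-CpG-binding domain family, which gave 4 groups of 3 libraries. Mouse embryonic stem cells (mESC), grown with LIF and a pair of kinase inhibitors and passaged to clear feeder cells, were transfected with siControl or with siNsun2 against Nsun2, an RNA 5-methylcytosine methyltransferase, with 3 libraries per group. All K562 groups shared the transduction and growth in puromycin, and the WT and TET2 KO lines reached the study ready made, so that the genotype and any other difference between the lines cannot be told apart. Whether the KO line was 1 clone and whether replicates came from separate cultures are matters not given in the sources used here. All p-values measure only the spread between these libraries. In bulk libraries, a lower share of a transcript and a higher total of other RNA cannot be told apart either.

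Libraries held 52158403 to 102070223 counts on genes in K562 and 58078323 to 66832780 in mESC, and replicate pairs differed by more than counting noise, so that all 18 libraries of the comparisons were kept as separate. The targeted gene Nsun2 fell by 0.34 on the log2 scale in siNsun2 (edgeR adjusted p = 2.67e-16), where well-expressed genes had a median of -0.21 and Tet2, which was not targeted, fell by 0.42 (edgeR adjusted p = 1.56e-29). MBD6 was at 41.5 ± 2.55 CPM (counts scaled to a common library size) in TET2 WT shControl and 27.9 ± 2.71 in TET2 WT shMBD6 (SD, n = 3). This is a log2 change of -0.57 (edgeR adjusted p = 1.83e-07), where well-expressed genes had a median of -0.17 and METTL3, which was not targeted, changed by -0.77. In TET2 KO the mean of MBD6 was 30.3 ± 0.749 CPM under the label shControl and 34.4 ± 3.86 under the label shMBD6. It was thus not lower under the label that names its knockdown. The libraries of these groups overlapped, and the log2 change of 0.19 did not pass (edgeR adjusted p = 0.0574). Between the shControl groups, MBD6 was lower in TET2 KO, at -0.46 (edgeR adjusted p = 6.49e-06). Both TET2 KO groups are therefore named by their labels only. TET2 was at 121 CPM in both TET2 WT groups, 129 in TET2 KO labelled shControl and 94.8 in TET2 KO labelled shMBD6, a difference of -0.44 between the KO groups (edgeR adjusted p = 7.23e-11). These levels do not check the knockout, since a shifted reading frame can leave the RNA in place. Of 8 markers of the erythroid K562 line, 5 or 6 were above 1 CPM in each group (HBG2, which overlaps other genes on its own strand, was at 0), while of 6 lymphoid markers 1 was, although the labels call K562 lymphoblast cells. Of 8 mESC markers 7 were above 1 CPM, and Sox2, which lies inside a gene on its own strand, was at 0.

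For a view of where transcription of these genes starts, the 250 bases before METTL14 and the 248 bases before METTL3 are shown, because both core subunits moved together in K562. Of the motifs searched, both promoters hold CCGGAAG and CCAAT, and only that of METTL3 holds TATAAA. The sequences are from RefSeq promoters of GRCh38.p14, in which 9 of the 10 members were matched (VIRMA was not), and lie at chr4:118685142-118685391 on the plus strand and chr14:21511343-21511590 on the minus strand. Capitals mark matches on either strand to CCGGAAG (the core bound by ETS factors), CCAAT (the CCAAT box) and TATAAA (the TATA box).
METTL14: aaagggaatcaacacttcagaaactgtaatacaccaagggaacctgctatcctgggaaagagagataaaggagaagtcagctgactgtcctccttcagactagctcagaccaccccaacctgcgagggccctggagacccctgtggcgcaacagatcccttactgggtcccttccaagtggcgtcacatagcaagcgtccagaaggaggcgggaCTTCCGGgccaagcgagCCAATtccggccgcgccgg
METTL3: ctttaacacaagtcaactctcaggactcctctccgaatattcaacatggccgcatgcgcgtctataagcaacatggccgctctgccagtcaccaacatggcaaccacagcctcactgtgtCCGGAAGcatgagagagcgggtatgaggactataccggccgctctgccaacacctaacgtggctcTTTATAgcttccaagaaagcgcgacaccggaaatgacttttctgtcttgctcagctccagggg
CCGGAAG was found in the 300-base promoters of METTL14, METTL3 and ZC3H13 and in 10.3% of all 35116 promoters, CCAAT in those of 6 members and in 34.6% of all, and TATAAA in that of METTL3 and in 11.5% of all. GGGCGG, the GC box bound by SP and KLF factors, was found for ALKBH5, RBM15, WTAP, YTHDC1 and YTHDF2 and in 45.0% of all promoters, and CACGTG (the E-box) for RBM15 and in 7.26% of all. The CCAAT match of METTL3 and another CCGGAAG match of METTL14 fall outside the stretches shown. Such matches describe letters and not bound sites.

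Per kilobase of gene span, since reads over introns were counted, RBM15, a gene of only 8.18 kb, had the highest caRNA level of the members in every group. In TET2 WT shControl it reached 28.3 ± 1.08 CPM per kb, followed by METTL3 at 4.96 ± 0.292 and WTAP at 4.48 ± 0.262, whose libraries overlapped. YTHDF2 came next at 3.4 ± 0.185 CPM per kb, then METTL14 at 1.64 ± 0.0972, ALKBH5 at 1.23 ± 0.0791 and ZC3H13 at 1.18 ± 0.0122, the last 2 of them overlapping. VIRMA at 0.844 ± 0.0413, FTO at 0.586 ± 0.0130 and YTHDC1 at 0.347 ± 0.0327 CPM per kb closed the order (SD, n = 3). Per library and not per length, FTO, which spans 457 kb, had the most reads of all members in this group, at 264, 275 and 265 CPM. Exons cover 4.67 kb of the 8.18 kb of RBM15 and 21.4 kb of the 457 kb of FTO. The part of exon share in the order per kb was not tested. The order among the middle ranks differed between the groups: METTL3 ranked 2 in TET2 WT shControl and in TET2 KO labelled shMBD6, but 4, below WTAP and YTHDF2, in the other 2 K562 groups, although it overlapped with YTHDF2 in TET2 WT shMBD6.

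In mESC siControl, Rbm15 was again highest at 11.2 ± 0.109 CPM per kb, before Wtap at 5.38 ± 0.188 and Zc3h13 at 4.18 ± 0.0418. Alkbh5 (3.72 ± 0.0472), Ythdc1 (3.27 ± 0.0456) and Ythdf2 (3.15 ± 0.116) followed, of which the last 2 overlapped. Mettl3 (2.46 ± 0.0822), Fto (1.97 ± 0.0449), Mettl14 (1.82 ± 0.0511) and Virma (1.49 ± 0.0123 CPM per kb) were lowest, with no overlap between neighbours. YTHDC1 thus ranked 10 in K562 and its mouse orthologue 5 in mESC, set side by side without a test, and 39.72% of the mouse Ythdc1 span is shared with Gm43055 on the same strand, so that its count is uncertain.

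To ask what shMBD6 did in TET2 WT cells, the 3 shMBD6 libraries were compared with the 3 shControl libraries. The writers fell together: METTL3 most, and METTL14, RBM15, WTAP, ZC3H13 and VIRMA by smaller amounts. METTL3 (chr14:21498133-21511342, which overlaps TOX4 on the other strand) was at 61.0, 67.2 and 68.1 CPM in TET2 WT shControl and at 41.2, 38.8 and 35.3 CPM in TET2 WT shMBD6. The groups did not overlap, with a log2 change of -0.77 (SE 0.06 by edgeR's quasi-likelihood test with Benjamini-Hochberg adjustment, adjusted p = 3.64e-12). METTL14 (chr4:118685392-118715433) was at 46.5, 52.3 and 48.7 CPM in shControl and 33.7, 36.8 and 37.7 in shMBD6. Its change was -0.45 (SE 0.07, edgeR adjusted p = 7.13e-06), again with no overlap between the groups.

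Among the adaptors, RBM15 (chr1:110338506-110346681), which brings the complex to its targets, was at 241, 226 and 227 CPM in TET2 WT shControl and 172, 165 and 172 in TET2 WT shMBD6, a change of -0.45 (SE 0.03, edgeR adjusted p = 3.02e-13). WTAP, which tethers the core in nuclear speckles, fell by 0.33 on the log2 scale (SE 0.04, from 129 to 145 CPM down to 104 to 113), and ZC3H13, which keeps the complex in the nucleus, fell by 0.32 (SE 0.05). VIRMA, the large scaffold of the complex, fell by 0.26 (SE 0.05, from 52.9 to 58.4 CPM down to 45.2 to 48.3). The erasers parted: ALKBH5 went from 30.6, 33.7 and 34.6 CPM to 27.6, 24.7 and 24.5, a change of -0.36 (SE 0.07, edgeR adjusted p = 6.52e-05), whereas FTO was at 264, 275 and 265 CPM against 257, 263 and 265, with overlapping groups and a change of -0.03 (SE 0.03, adjusted p = 0.356 by edgeR). The sign for FTO depends on the scaling, and it turned to 0.07, called higher, with DESeq2 size factors (edgeR adjusted p = 0.0435). Of the readers, YTHDF2 fell by 0.20 (SE 0.04, edgeR adjusted p = 0.000142; the call was lost at -0.09 with DESeq2 size factors), and YTHDC1, the member with the fewest reads, had a change of -0.19 that did not pass (SE 0.12, edgeR adjusted p = 0.212).

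In all, 8 of 10 members were called, 8 lower and 0 higher, against 42.4% of all genes tested that were called, 24.7% lower and 17.7% higher. With DESeq2 size factors 7 were called lower and 1 higher, beside 40.4% of all genes called. The groups did not overlap for 8 of 10 members and for 57.6% of all genes. All members but ALKBH5 and YTHDC1 are, however, among the 5864 well-expressed genes, those whose log2 CPM averaged 5 or more. Of these genes 77.3% were called, 59.8% lower and 17.5% higher. The members' median log2 change was -0.33, that of the well-expressed genes -0.17 and that of all genes tested 0.10. With DESeq2 size factors the median of all genes moved to 0.21 and that of the members to -0.22.

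**Figure D1:**
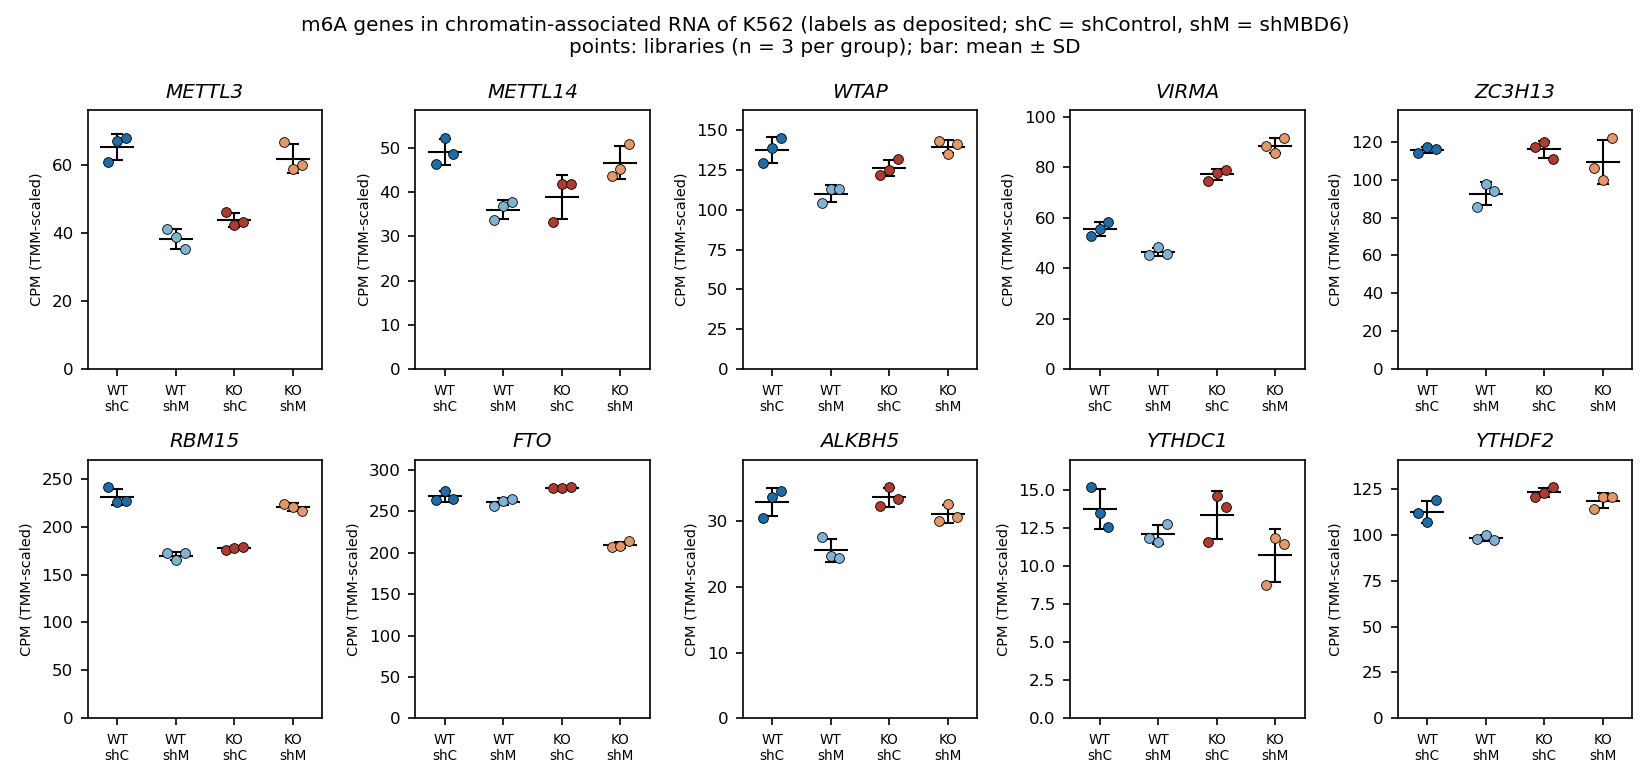
CPM of each of the 10 members (vertical axis, scaled with the trimmed mean of M values, from 0) in the 12 K562 libraries, with groups on the horizontal axis as labelled, points for libraries and bars for mean ± SD (n = 3). METTL3 lies at 61.0 to 68.1 CPM in TET2 WT shControl and 58.9 to 67.0 in TET2 KO labelled shMBD6, above the other 2 groups at 35.3 to 46.3, while VIRMA lies higher in both TET2 KO groups.

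In TET2 KO cells the same labels gave changes in other directions. METTL3 was at 46.3, 42.4 and 43.3 CPM in the TET2 KO libraries labelled shControl and at 67.0, 58.9 and 60.2 in those labelled shMBD6. It was thus higher in every library labelled shMBD6, with a log2 change of 0.49 (SE 0.06, edgeR adjusted p = 6.27e-08). RBM15 was at 176, 178 and 179 CPM against 224, 221 and 216, a change of 0.31 (SE 0.03, edgeR adjusted p = 1.34e-09). METTL14 rose by 0.26 (SE 0.07, from 33.2, 41.8 and 41.9 CPM to 43.8, 45.3 and 50.9; edgeR adjusted p = 0.00575). Its call rests on 1 library at either end: without TET2 KO shControl replicate 1, at 33.2 CPM, the change was 0.15 (edgeR adjusted p = 0.108), and without replicate 3 of those labelled shMBD6 it was 0.19 (edgeR adjusted p = 0.0565). VIRMA rose by 0.20 (SE 0.05) and WTAP by 0.15 (SE 0.04), while ZC3H13 was at 117, 120 and 111 CPM against 106, 99.8 and 122, a change of -0.08 that did not pass (edgeR adjusted p = 0.23). That value rests on replicate 3 of the libraries labelled shMBD6, and without it ZC3H13 was called lower at -0.17 (edgeR adjusted p = 0.00499).

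FTO moved the opposite way to METTL3 in this comparison. FTO (chr16:53701692-54158512) was at 278, 278 and 279 CPM in the TET2 KO libraries labelled shControl and at 207, 208 and 214 in those labelled shMBD6, a change of -0.41 (SE 0.03, edgeR adjusted p = 2.13e-13). ALKBH5, at 32.4, 35.2 and 33.4 CPM against 30.0, 32.7 and 30.7, did not pass (log2 change -0.11, edgeR adjusted p = 0.229). YTHDC1 was called lower at -0.32 (SE 0.12, edgeR adjusted p = 0.0357) although its groups overlapped, at 11.6, 14.6 and 13.9 CPM against 8.75, 11.9 and 11.5. The call was lost without replicate 2 or 3 of TET2 KO shControl (-0.25 and -0.29), without replicate 1 labelled shMBD6 (-0.19) and in a fit of only the groups compared (-0.27), as well as with total gene counts (-0.19) and with no low-count filter (-0.27). YTHDF2 had a change of -0.06 (edgeR adjusted p = 0.289).

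In all, 7 of 10 members were called, 5 higher and 2 lower, where 36.4% of all genes were called, 15.7% higher and 20.6% lower, and 70.8% of the well-expressed genes, 32.0% higher and 38.8% lower. Scaled to total gene counts, 5 were called higher and 1 lower, beside 38.8% of all genes called. The groups did not overlap for 6 of 10 members and for 43.8% of all genes. The members' median was 0.05, beside -0.02 for well-expressed genes and -0.07 for all genes.

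Whether the response differed between genotypes was tested as the interaction, the log2 change in TET2 KO minus that in TET2 WT, with both genotypes in 1 model. It was called for 9 of 10 members, 8 with a positive and 1 with a negative value, where 49.4% of all genes were called, 23.9% positive and 25.5% negative, and 79.2% of the well-expressed genes, 49.1% positive and 30.1% negative. It was 1.26 (SE 0.09, edgeR adjusted p = 5.31e-14) for METTL3, 0.76 (SE 0.05, edgeR adjusted p = 1.62e-15) for RBM15 and 0.71 (SE 0.11, edgeR adjusted p = 8.74e-07) for METTL14. WTAP at 0.48 and VIRMA at 0.46 followed, and ZC3H13 (0.24), ALKBH5 (0.25) and YTHDF2 (0.14) had smaller positive values that were lost with DESeq2 size factors (0.14, 0.15 and 0.04). Those of ALKBH5 and YTHDF2 also rest on single libraries, since leaving out 1 library ended the call of ALKBH5 for 7 of the 12 libraries (0.22 to 0.25) and that of YTHDF2 for 7 of them (0.10 to 0.14). FTO was the member with a negative value that passed, at -0.37 (SE 0.04, edgeR adjusted p = 2.41e-09), and YTHDC1 at -0.13 did not pass (edgeR adjusted p = 0.551). The median over all genes was -0.19, over well-expressed genes 0.14 and over the members 0.36. Because MBD6 was not lower in the TET2 KO libraries labelled shMBD6, the direction of these differences is that of the labels and not of MBD6. With the TET2 KO labels exchanged, a setting added after the values were seen, 8 members were called, all positive, and the order changed: YTHDC1 had 0.50, ALKBH5 0.48, FTO 0.44, ZC3H13 0.41, METTL3 0.27, YTHDF2 0.25, WTAP 0.18 and RBM15 0.13, while METTL14 (0.19) and VIRMA (0.06) did not pass. The lead of METTL3 and the negative sign of FTO therefore hold for the labels as deposited. In the exchanged setting 20.7% of all genes were called, 4067 with positive and 1320 with negative values.

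The effect of genotype was read first between the shControl groups, which share their libraries with the comparisons above. Here the core writers were lower and VIRMA was higher in TET2 KO as labelled. METTL3 went from 61.0, 67.2 and 68.1 CPM in TET2 WT shControl to 46.3, 42.4 and 43.3 in TET2 KO shControl, a log2 change of -0.57 (SE 0.06, edgeR adjusted p = 1.5e-09). RBM15 (-0.38, SE 0.03, edgeR adjusted p = 6.39e-12) and METTL14 (-0.34, SE 0.07, edgeR adjusted p = 0.000327) were lower without overlap between the groups. WTAP was called lower at -0.13 (edgeR adjusted p = 0.0147) with overlapping groups, and this call was lost without replicate 3 of TET2 WT shControl (-0.09) or replicate 1 or 2 of TET2 KO shControl (-0.10 and -0.12). VIRMA, at 52.9, 55.5 and 58.4 CPM in WT and 74.7, 77.9 and 78.8 in KO, was higher in every KO library, with a change of 0.47 (SE 0.05, edgeR adjusted p = 4.84e-10). With the TET2 KO labels exchanged, 3 members were called, beside 38.9% of all genes. VIRMA was higher at 0.67, FTO lower at -0.35 and YTHDC1 lower at -0.36. METTL3 (-0.08), METTL14 (-0.08) and RBM15 (-0.07) then did not pass, so that the lower writers rest on the labels and the higher VIRMA does not.

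YTHDF2 was also called higher, at 0.13 (SE 0.04, 107 to 119 CPM against 121 to 126; edgeR adjusted p = 0.00776), but this turned to -0.05 when libraries were scaled to total gene counts, and without replicate 2 of TET2 WT shControl it was 0.10 and not called. FTO (0.05), ALKBH5 (0.03), ZC3H13 (0.00) and YTHDC1 (-0.05) did not pass (edgeR adjusted p from 0.133 to 0.964). In all, 6 of 10 members were called, 2 higher and 4 lower, where 45.8% of all genes were called, 23.5% higher and 22.3% lower, and 76.8% of the well-expressed genes, 43.6% higher and 33.1% lower. Scaled to total gene counts, which lowered the median of all genes from -0.05 to -0.23, 7 members were called, 1 higher and 6 lower. Of all genes, 49.2% were called with this scaling. The groups did not overlap for 6 of 10 members and for 56.1% of all genes. The members' median was -0.02, beside 0.04 for well-expressed genes and -0.05 for all genes.

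Between genotypes under shMBD6, 9 of 10 members were called, 8 higher and 1 lower in the TET2 KO libraries labelled shMBD6, where 58.6% of all genes were called, 30.1% higher and 28.5% lower, and 81.4% of the well-expressed genes, 63.9% higher and 17.4% lower. With DESeq2 size factors, which moved the median of all genes to -0.15, 6 were called higher and 2 lower, as ZC3H13 (0.12) and ALKBH5 (0.16) no longer passed and YTHDC1 (-0.30) did. Of all genes, 56.5% were called with these size factors. With the TET2 KO labels exchanged 7 were called, all higher, beside 45.8% of all genes, 7180 of them higher and 4737 lower. The change was largest for VIRMA, 0.73 with exchanged labels, at 45.2, 48.3 and 45.7 CPM in TET2 WT shMBD6 and 88.3, 85.6 and 91.6 in the KO libraries, a log2 change of 0.93 (SE 0.05, edgeR adjusted p = 3.24e-17). METTL3 followed at 0.69 (SE 0.06, 35.3 to 41.2 CPM against 58.9 to 67.0; edgeR adjusted p = 2.71e-11). RBM15 (0.38), METTL14 (0.37), WTAP (0.35), ALKBH5 (0.28), YTHDF2 (0.27) and ZC3H13 (0.24) were higher, FTO was lower at -0.32 (SE 0.03, edgeR adjusted p = 3.48e-11), and YTHDC1 at -0.18 did not pass (edgeR adjusted p = 0.205). The groups did not overlap for 9 of 10 members and for 64.0% of all genes. The members' median of 0.32 stands beside 0.22 for well-expressed genes and -0.03 for all genes. When only the well-expressed genes were tested and scaled among themselves, 5 of the 8 members among them were called, beside 76.2% of these genes.

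**Figure D2:**
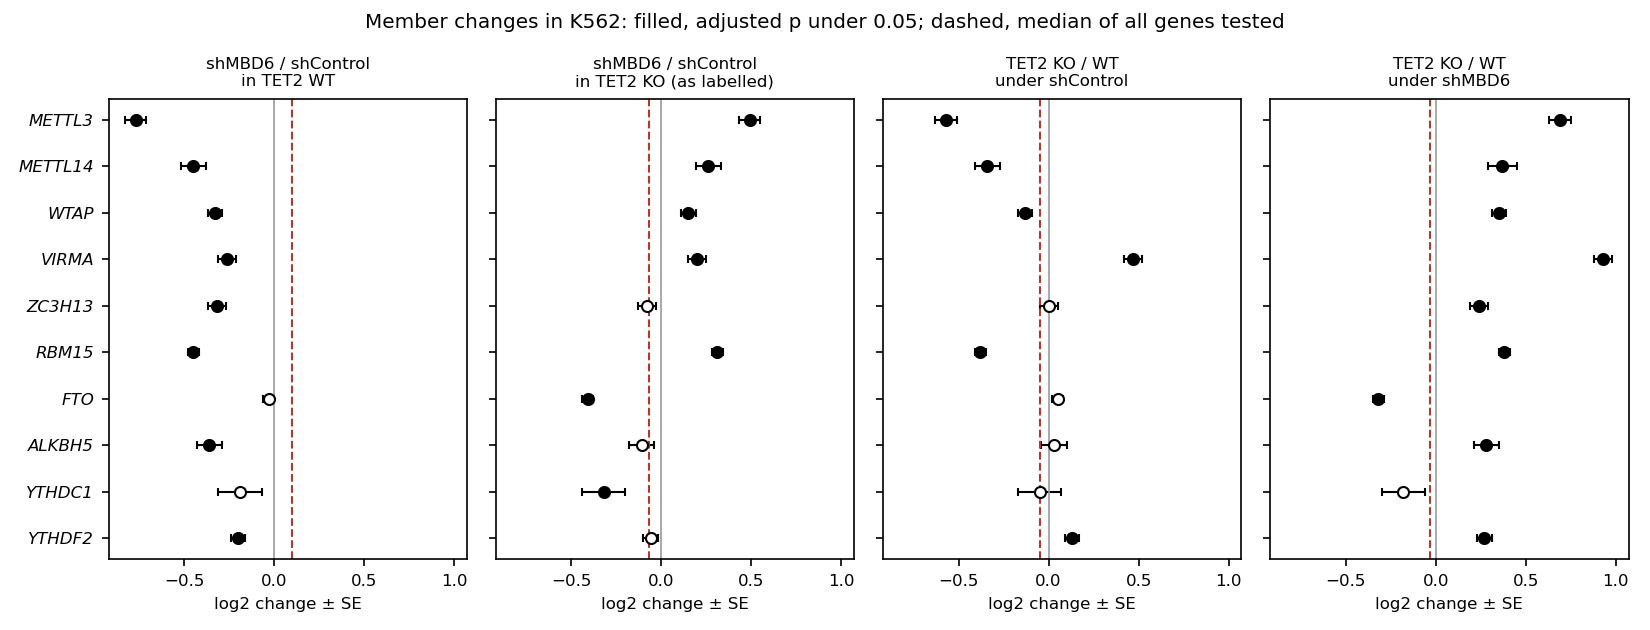
Log2 change (horizontal axis, bars for SE) of the 10 members in the 4 K562 comparisons, filled where the edgeR adjusted p was under 0.05, with the median of all genes tested dashed. METTL3 runs from -0.77 to 0.69 across the panels and VIRMA lies to the right of 0 in all panels but that of shMBD6 in TET2 WT.

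Measures beside the members moved with the same grouping of libraries. The share of mitochondrial counts was 0.022% to 0.0238% in TET2 WT shControl and 0.0233% to 0.0273% in the TET2 KO libraries labelled shMBD6, and 0.0405% to 0.0499% and 0.0483% to 0.054% in TET2 WT shMBD6 and TET2 KO shControl. It was thus low in the groups in which METTL3, METTL14 and RBM15 were high. The summed level of the 8 erythroid markers was 785 to 807 CPM in TET2 WT shControl, 523 to 538 in TET2 WT shMBD6, 452 to 458 in TET2 KO shControl and 637 to 647 in TET2 KO labelled shMBD6, which is the same order of high and low groups. TFRC made up most of each sum, with means of 578, 356, 318 and 470 CPM in these groups. GATA1 had the same grouping, at 54.2, 35.3, 34.9 and 46.4 CPM. TAL1 did not, at 127 CPM in TET2 WT shMBD6 and 110 in TET2 KO labelled shMBD6. The 6 lymphoid markers summed to 1.48 to 4.8 CPM and the 5 monocyte markers to 2.55 to 7.48 over all 12 libraries. The part of these differences in the members' changes was not tested.

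The span of a gene also went with its change. Among well-expressed protein-coding genes, the median interaction was 0.52 for 336 genes under 15 kb, 0.39 for 1844 genes of 15 to 50 kb, 0.09 for 2201 genes of 50 to 150 kb and -0.19 for 969 longer genes. Among the members, METTL3 (13.2 kb) and RBM15 (8.18 kb) had the highest values at 1.26 and 0.76, and FTO (457 kb) the lowest at -0.37. YTHDC1 (39.7 kb, -0.13), YTHDF2 (33.2 kb, 0.14) and VIRMA (65.8 kb, 0.46) did not follow the order of the classes. ALKBH5 (26.9 kb, 0.25) and ZC3H13 (98.3 kb, 0.24), of different classes, were nearly level. With the TET2 KO labels exchanged the values were 0.27 for METTL3, 0.13 for RBM15 and 0.44 for FTO. FTO was then above both, and METTL3 stayed above RBM15. No class medians were taken for that setting. In TET2 WT the medians under shMBD6 ran from -0.35 for the shortest class to -0.04 for the longest, and in TET2 KO from 0.19 to -0.24. METTL3, at -0.77 and 0.49, lay beyond the median of its class in both, and FTO, at -0.03 and -0.41, lay near its class median in TET2 WT and below it in TET2 KO. The classes were set after the values were seen, and the part of gene span in the members' changes was not tested.

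**Figure D3:**
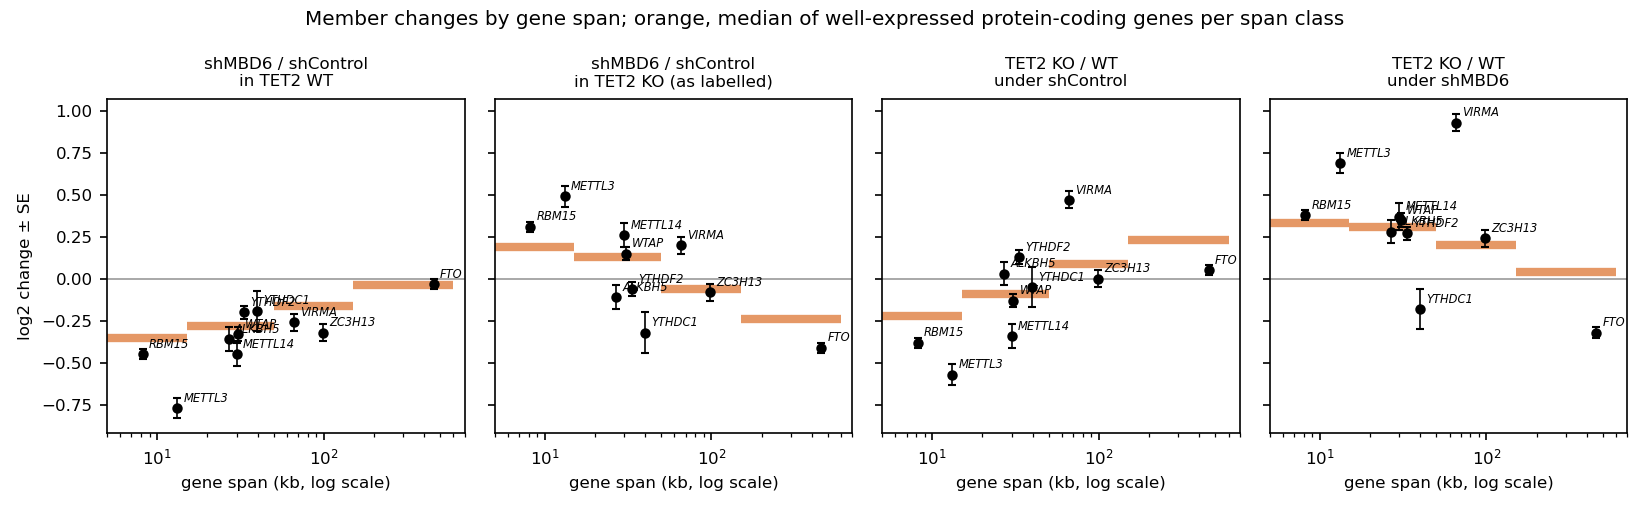
Log2 change (vertical axis, bars for SE) of each member against its gene span in kb (log scale) in the 4 K562 comparisons, with the median of well-expressed protein-coding genes in 4 span classes in orange. The orange medians rise with span from -0.35 to -0.04 for shMBD6 in TET2 WT and fall from 0.19 to -0.24 in TET2 KO as labelled.

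VIRMA stood apart from the other writers among the members by its genotype difference, and its neighbours on chromosome 8 shared it. Outside the members, the writer-associated gene CBLL1 on chromosome 7 was also called higher in TET2 KO, at 0.22 under shControl and 0.77 under shMBD6. With the TET2 KO labels exchanged these values of CBLL1 were 0.39 and 0.61, both called. Of the tested genes within 5 Mb on either side of VIRMA, 77 in number, the median change in TET2 KO over WT was 0.67 under shControl and 0.58 under shMBD6, while all tested genes of chromosome 8 had medians of 0.23 and -0.02. For the 20 well-expressed neighbours the medians were 0.66 and 0.68, beside 0.47 and 0.93 for VIRMA itself. Under shMBD6 in TET2 WT and TET2 KO the neighbours' medians were 0.08 and -0.19, against -0.26 and 0.20 for VIRMA. Over all tested neighbours, the medians of the other members were at most 0.23 in size in the comparison under shControl, as METTL3 had -0.01, RBM15 -0.05, METTL14 -0.05 and YTHDF2 -0.23. For ZC3H13 the median was -0.06 over all tested neighbours and 0.30 over the 21 well-expressed ones. Under shMBD6 the 113 tested neighbours of FTO had a median of -0.32, the same as FTO itself, beside 0.01 for chromosome 16. The 18 well-expressed neighbours of FTO had a median of 0.21 there. Whether the DNA of the VIRMA region differs between the lines was not tested.

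**Figure D4:**
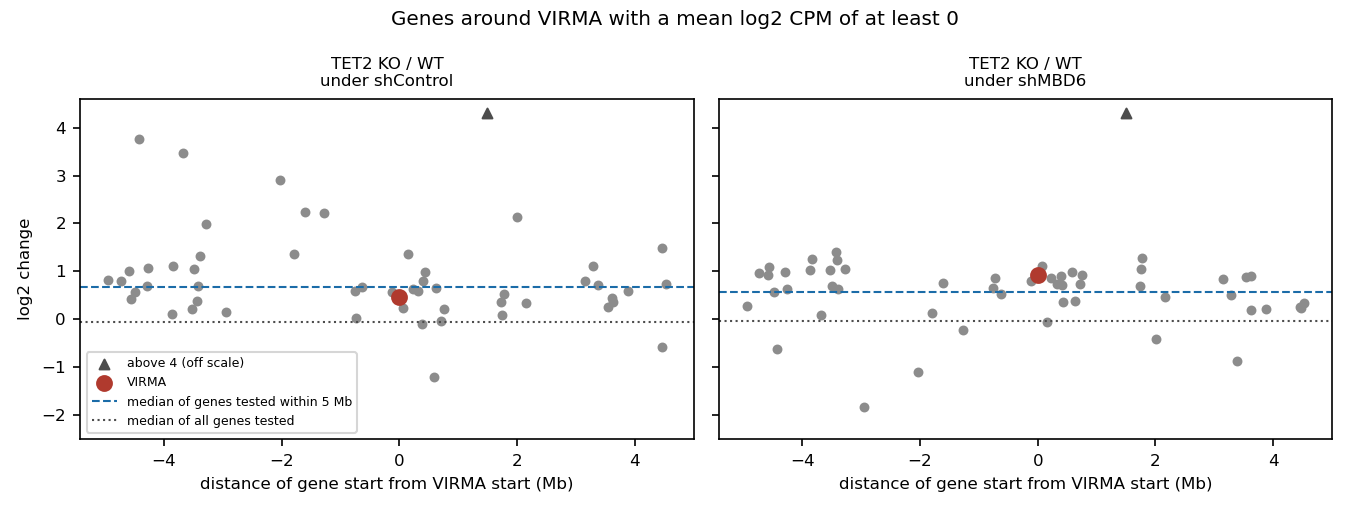
Log2 change in TET2 KO over WT (vertical axis) of genes within 5 Mb of VIRMA against the distance of their start from that of VIRMA in Mb, for genes whose log2 CPM averaged 0 or more, under shControl and under shMBD6. VIRMA (red) lies at 0.47 and 0.93, the median of all tested neighbours (blue) at 0.67 and 0.58, and the median of all genes at -0.05 and -0.03. Triangles at the top mark genes above 4.

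VIRMA also had the widest range of group means over the 4 K562 groups, 0.93 on the log2 scale, followed by METTL3 at 0.77. The 5 protein-coding genes whose profile over the 12 libraries was most like that of VIRMA, out of 16265 ranked, were TMOD3, ZNF131, MDM4, SPG11 and PARP6, with a root mean square distance of 0.041 to 0.058 in centred log2 CPM. TMOD3, SPG11 and PARP6 are on chromosome 15, ZNF131 is on chromosome 5 and MDM4 on chromosome 1. TMOD3 for example had group means of 116, 93.7, 159 and 175 CPM in TET2 WT shControl, TET2 WT shMBD6, TET2 KO shControl and TET2 KO labelled shMBD6.

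The ratios of counts between members of 1 library do not depend on how libraries are scaled. METTL14 to METTL3 was 0.751 ± 0.0326 in TET2 WT shControl and 0.944 ± 0.124 in TET2 WT shMBD6, which did not overlap, and 0.890 ± 0.151 and 0.756 ± 0.0961 in TET2 KO labelled shControl and shMBD6, which did (SD, n = 3). FTO to ALKBH5 went from 8.14 ± 0.481 to 10.2 ± 0.819 in the TET2 WT libraries and went from 8.27 ± 0.352 to 6.74 ± 0.337 in the TET2 KO ones, each without overlap. YTHDF2 to YTHDC1 was between 8.15 and 11.3 in the mean of every K562 group and at 0.814 ± 0.0207 in mESC siControl. With 3 libraries against 3, an exact two-sided permutation test cannot go below p = 0.1, and over the 15 tests of the 3 ratios the smallest adjusted p was 0.214, so that no ratio passed. METTL3 to FTO, a ratio chosen after the values were seen and not tested, was 0.231, 0.245 and 0.257 in TET2 WT shControl and 0.160, 0.148 and 0.133 in TET2 WT shMBD6. In TET2 KO it was 0.167, 0.153 and 0.155 in the libraries labelled shControl and 0.324, 0.283 and 0.281 in those labelled shMBD6, so that the groups did not overlap on a measure free of scaling. The measure is not free of gene span, which is 13.2 kb for METTL3 and 457 kb for FTO, and the part of span in this ratio was not tested.

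In mESC the question was whether lowering Nsun2 changed the members. Of the 10, 9 fell in siNsun2, by 0.15 to 0.34 on the log2 scale, although scaling set part of this. Zc3h13 was at 254, 249 and 249 CPM in siControl and 201, 193 and 204 in siNsun2, a log2 change of -0.33 (SE 0.03, edgeR adjusted p = 2.62e-20). Mettl14 was at 33.4, 32.4 and 31.6 CPM against 25.4, 26.4 and 25.2, a change of -0.34 (SE 0.06, edgeR adjusted p = 2.94e-07). Mettl3, its partner, was at 24.4, 26.1 and 25.2 CPM against 23.4, 21.6 and 24.2. Its groups were apart by little, and its change of -0.13 did not pass (SE 0.06, edgeR adjusted p = 0.0727), although it was called at -0.19 with DESeq2 size factors and at -0.16 and -0.17 without siControl replicate 1 or siNsun2 replicate 3.

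Both erasers fell, Alkbh5 from 81.1, 82.7 and 83.1 CPM to 68.9, 62.4 and 67.5 (log2 change -0.31, SE 0.04) and Fto from 684, 696 and 716 to 584, 585 and 603 (-0.24, SE 0.02). Rbm15 fell by 0.27, Wtap by 0.22 and Virma by 0.20 on the log2 scale. Of the readers, Ythdc1 had a change of -0.25, on a count that overlaps Gm43055, and Ythdf2 of -0.15 (SE 0.04, edgeR adjusted p = 0.000171). In all, 9 of 10 members were called lower and 0 higher, where 50.2% of all genes were called, 25.8% higher and 24.3% lower. The groups did not overlap for 10 of 10 members and for 56.7% of all genes.

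Well-expressed mESC genes as a whole were lower in siNsun2 under the same scaling: 87.1% of the 5514 genes whose log2 CPM averaged 5 or more were called, 78.8% lower and 8.36% higher, with a median of -0.21 beside -0.25 for the members and 0.14 for all genes. When libraries were scaled to total gene counts the median of all genes moved to 0.32 and that of the members to -0.06. Called were then 5 members, beside 46.5% of all genes. When only well-expressed genes were tested and scaled among themselves, 3 of the 8 members among them were called, all lower, beside 57.4% of these genes. The members' median was then -0.04. Virma, Ythdf2 and Mettl3 turned to values from 0.01 to 0.05 under 1 or both of these scalings. The share of reads assigned to no gene was 19.56% to 20.23% in siControl and 28.94% to 29.86% in siNsun2, and the 7 feeder cell markers summed to 46.7 to 48.6 CPM in siControl and 34.3 to 35.8 in siNsun2. Their part in the members' changes was not tested. Unlike in K562, the median change of well-expressed genes was nearly the same in all span classes, from -0.22 to -0.16.

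**Figure D5:**
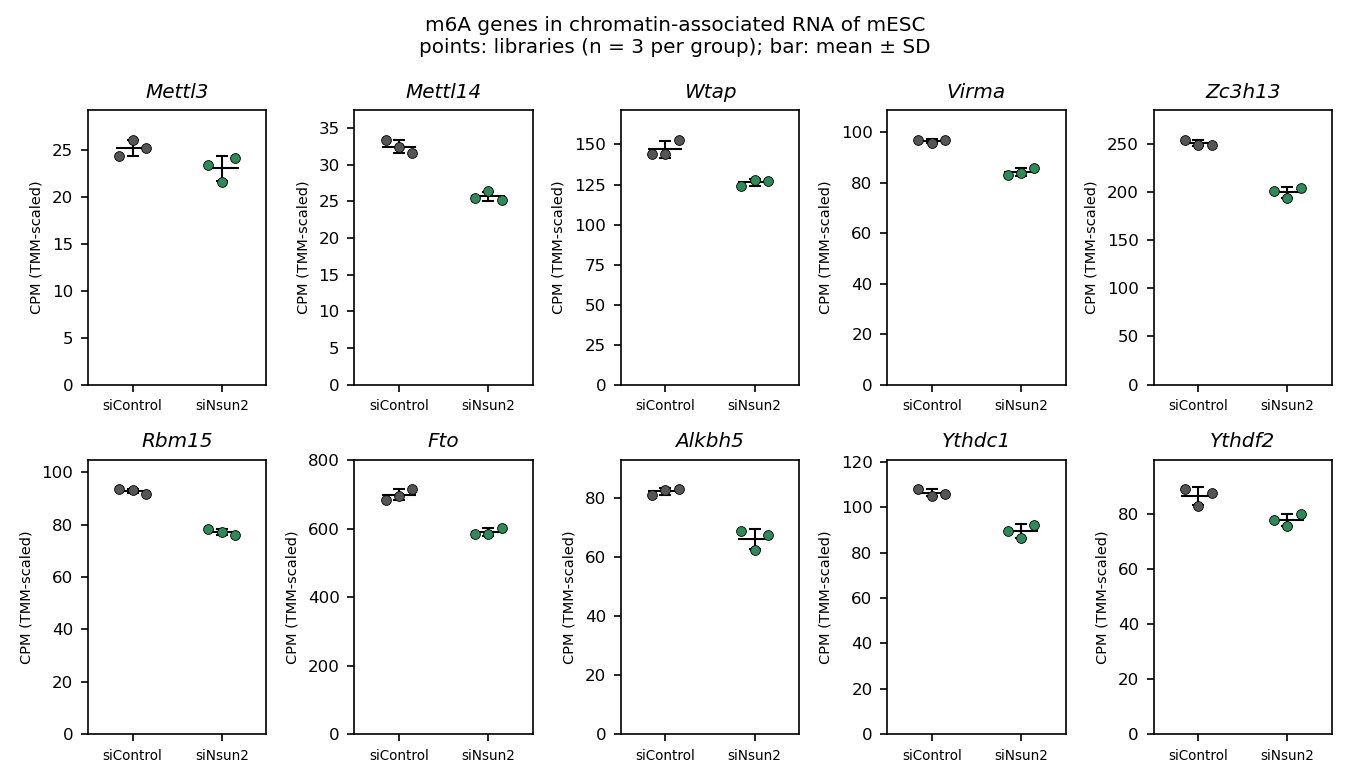
CPM of the 10 members (vertical axis, from 0) in the 3 siControl and 3 siNsun2 mESC libraries, with points for libraries and bars for mean ± SD. Every siNsun2 library lies below every siControl library for all 10 genes under this scaling, although the direction of Mettl3, Virma and Ythdf2 turns under others, and the gap is small for Mettl3 (23.4, 21.6 and 24.2 against 24.4, 26.1 and 25.2 CPM).

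Another 20 genes of the m6A pathway were set beside the members: 7 further writers and their partners, 3 YTH readers and 10 other RNA-binding proteins described as readers. Under shMBD6 in TET2 WT, 16 of these 20 were called lower and 0 higher, and their median was -0.40 beside 0.10 for all genes and -0.17 for well-expressed genes. The shares called lower were 24.7% of all genes and 59.8% of the well-expressed ones. The largest changes were those of TRMT112, the partner of several methyltransferases (-0.95, SE 0.32), RBM15B, a paralogue of RBM15 (-0.64, SE 0.13), PCIF1, which methylates the cap-adjacent adenosine (-0.60, SE 0.08), IGF2BP1 (-0.55, SE 0.03), ZCCHC4, which methylates ribosomal RNA (-0.52, SE 0.05), and RBMX (-0.50, SE 0.03). In the TET2 KO libraries labelled shMBD6 over shControl, 12 were called, 8 higher and 4 lower, where 36.4% of all genes and 70.8% of the well-expressed ones were called, and FMR1, an RNA-binding protein of polyribosomes, had the largest change at -0.53 (SE 0.06). The interaction was called for 16 of 20, with 14 positive and 2 negative values, where 49.4% of all genes and 79.2% of the well-expressed ones were called. It was called for 14, all positive, with the TET2 KO labels exchanged, beside 20.7% of all genes. As labelled, it was led by TRMT112 at 1.17 (SE 0.44, edgeR adjusted p = 0.0293), RBM15B at 0.98 (SE 0.19) and PCIF1 at 0.87 (SE 0.11). ZCCHC4 at 0.78 (SE 0.07), YTHDC2 at 0.77 (SE 0.06) and IGF2BP1 at 0.76 (SE 0.04) followed. The K562 group means of TRMT112 were only 1.13 to 2.2 CPM and those of RBM15B 6.39 to 10.3 CPM, so that their sizes are the least certain of these.

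Between genotypes under shControl, 14 of the 20 were called, 4 higher and 10 lower, all by less than 0.5 on the log2 scale and with a median of -0.17, where 45.8% of all genes and 76.8% of the well-expressed ones were called. Exchanged TET2 KO labels left 7 called, 1 higher and 6 lower, beside 38.9% of all genes. Under shMBD6, 15 were called, 14 higher and 1 lower, with a median of 0.29, where 58.6% of all genes and 81.4% of the well-expressed ones were called, 30.1% and 63.9% higher. The split was 10 higher and 2 lower with DESeq2 size factors, 9 and 4 with total gene counts, and 7 and 6 when only well-expressed genes were tested. In these settings 56.5%, 56.1% and 76.2% of the genes tested were called. As scaled here, the changes were led by CBLL1, an associated E3 ligase (0.77, SE 0.07), RBM15B (0.70, SE 0.13), YTHDC2 (0.54, SE 0.04) and PCIF1 (0.50, SE 0.08). In mESC, 16 of the 19 genes tested were called lower in siNsun2 and 0 higher, with a median of -0.21, where 50.2% of all genes were called, 24.3% lower, and 87.1% of the well-expressed ones, 78.8% lower. With total gene counts 3 were called higher and 6 lower, with a median of -0.03, and among well-expressed genes alone 2 were called higher and 3 lower. The shares called of the genes tested were 46.5% and 57.4%. Trmt112 was the only one past 0.5 in size (-0.70, SE 0.27), with overlapping groups and means of only 1.69 CPM in siControl and 1.04 in siNsun2. Rbm15b, which lies wholly inside Manf on its own strand, did not pass the filter on low counts and was not tested.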

How the data were processed

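caRNA was sequenced from ribosomal RNA-depleted, stranded libraries. The authors trimmed reads with Trimmomatic 0.39, aligned them with HISAT2 2.2.1 to hg38 or mm10 and counted them per gene with HTSeq 0.12.4 on GENCODE v29 or M19, although the methods also name featureCounts. The deposited values are raw counts, 1 table per library. The settings for strand and introns are not given in the sources used here. Of 6910 human and 5422 mouse genes inside an intron on their own strand, 6621 and 5414 were at 0 in all libraries, so counts were read as covering whole gene spans by strand. Summary lines were dropped. No spike-in lines were found, so changes are relative to other genes. Positions are from GENCODE v44 (GRCh38) and M21 (GRCm38), which matched 99.12% and 99.93% of identifiers.

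Genes passing filterByExpr (minimum 10 counts) were tested with edgeR 4.0.16 in R 4.3.3 (robust quasi-likelihood test, two-sided, TMM scaling, Benjamini-Hochberg over all genes, called under 0.05), with all 12 K562 libraries in 1 model and the 6 siRNA libraries in another. The code was tested on simulated data. SEs derive from the F statistic. The K562 comparisons share groups and are not independent. Alternatives were DESeq2 1.42.0, other scalings and filters, a fit of only the groups compared, a replicate block and leaving out each library. All members are named, and of the other m6A genes up to 6 per comparison, called and changed by at least 0.5 on the log2 scale. For VIRMA, the member with the widest range of group means, the 5 nearest profiles are named (pseudocount 0.125 CPM). Members and lists were chosen with earlier results of these data known, and span classes and the METTL3 to FTO ratio after values were seen.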

Additional observations from a re-analysis of the deposited data

Results flagged for a closer look

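The log2 change with the label shMBD6 differed between TET2 KO and TET2 WT for 9 members, by the interaction term of the edgeR model. All such results share the TET2 KO libraries, in which MBD6 was not lower under the label shMBD6. The difference was 1.26 for METTL3, 0.76 for RBM15, 0.71 for METTL14, 0.48 for WTAP and 0.46 for VIRMA, each called under all other scalings, filters, tools and left-out libraries run. It was 0.24 for ZC3H13, 0.25 for ALKBH5 and 0.14 for YTHDF2, called under 15 of 18, 7 of 17 and 7 of 18 alternatives. For FTO it was -0.37, called under all 18. With the TET2 KO labels exchanged, a setting not among these, the values were 0.27 for METTL3, 0.13 for RBM15, 0.19 for METTL14, 0.18 for WTAP, 0.06 for VIRMA and 0.44 for FTO, of which those of METTL14 and VIRMA were not called. With 49.4% of all genes and 79.2% of well-expressed genes called in the same test, the members' share of 9 of 10 is to be read beside these. Exchanged labels left 20.7% of all genes called.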

How the results depend on the processing

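Of 1048 values of member changes under alternatives other than exchanged labels, 955 kept direction and side of the threshold. For siNsun2, scaling to total gene counts left 5 members and 9 listed genes called, and testing only genes whose log2 CPM averaged 5 or more left 3 and 5. In these settings 46.5% and 57.4% of the genes tested were called. For shMBD6 in TET2 WT, listed genes fell to 10 without the low-count filter and 8 among well-expressed genes. Of the genes tested, 24.1% and 71.6% were called there. For TET2 KO over WT under shMBD6, 5 of the 8 members tested stayed called among well-expressed genes, beside 76.2% of these genes. The last setting tests fewer genes, and the cause was otherwise not tested.

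Direction turned with total gene counts for Mettl3 (0.05) and Ythdf2 (0.03) in siNsun2, for ZC3H13 (-0.17), FTO (-0.12), ALKBH5 (-0.15) and YTHDF2 (-0.05) in TET2 KO over WT under shControl, for FTO (0.06) in shMBD6 in TET2 WT, and for ZC3H13 (0.04), ALKBH5 (0.01) and YTHDF2 (0.07) in TET2 KO labelled shMBD6. With only well-expressed genes it turned for Virma (0.01) and Ythdf2 (0.05) in siNsun2, ZC3H13 (-0.05) and FTO (0.00) in TET2 KO over WT under shControl, FTO (0.13) in shMBD6 in TET2 WT and the YTHDF2 interaction (-0.02). DESeq2 size factors and the DESeq2 Wald test turned ZC3H13 (-0.02) in TET2 KO over WT under shControl and FTO (0.07) in shMBD6 in TET2 WT. No low-count filter gave FTO 0.07 there, and a fit of only the groups compared gave ZC3H13 -0.01 under shControl. The cause was not tested.

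Leaving out 1 library gave 9 to 10 called members for siNsun2, 5 to 6 for TET2 KO over WT under shControl, 8 for shMBD6 in TET2 WT, 6 to 7 for TET2 KO labelled shMBD6, 9 for TET2 KO over WT under shMBD6 and 7 to 9 for the interaction. In the same order, the shares of all genes called were 41.4% to 45.1%, 38.4% to 46.5% and 35.2% to 43.4%. For the last 3 they were 29.9% to 34.7%, 52% to 58% and 43.7% to 47.3%. For TET2 KO over WT under shControl the range crossed 0 for ZC3H13 (-0.02 to 0.03), ALKBH5 (-0.02 to 0.06) and YTHDC1 (-0.12 to 0.05), and for YTHDC1 the interaction ran from -0.22 to 0.00, none of them called. The ratio FTO to ALKBH5 under shControl ran from -0.02 to 0.07 on the log2 scale and YTHDF2 to YTHDC1 in TET2 WT from -0.08 to 0.09.

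Same-numbered K562 libraries deviated together with r of -0.05 to 0.31 over 18 pairs of libraries, and mESC libraries with -0.04 to 0.03 over 3, so the numbers were not taken to pair them. With replicate number as a block, 9 members were called for siNsun2, 6, 8, 7 and 9 for the K562 comparisons in the order of the paragraph above and 9 for the interaction, as without it. In that order 49.6%, 45.6%, 42.8%, 36.8%, 58.9% and 49.5% of all genes were called. YTHDC1 had the fewest reads (575 to 1412 counts per K562 library), and its SE of 0.12 limits what can be seen.

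Exchanging the TET2 KO labels, added after the data were seen, left 3 members and 7 listed genes called for TET2 KO over WT under shControl, beside 38.9% of all genes. It turned WTAP (0.02), ZC3H13 (-0.08), FTO (-0.35) and ALKBH5 (-0.08) there, FTO (0.09) and YTHDC1 (0.14) under shMBD6, and FTO (0.44) and YTHDC1 (0.50) in the interaction.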

Other observations

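A single mESC library labelled Pscp1 WT, replicate 3, belongs to another experiment and entered no comparison. Scaled to its total gene counts, its levels were 25.1 CPM for Mettl3 and 35.2 for Mettl14, beside 22.9 to 24.6 and 29.5 to 31.3 in siControl on the same scale. Zc3h13 was at 359 CPM there and at 233 to 238 in siControl, Wtap at 208 and at 136 to 143, Ythdc1 at 152 and at 98.9 to 101, and Virma at 126 and at 90.3 to 91.1. Fto was at 588 CPM and at 642 to 670 in siControl. The library is 1 sample, and no test was made.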
